A study of Rattus norvegicus with 9 samples.

Results

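The subject is 40 genes of glycolysis, the pyruvate gate into the mitochondrion, the citrate cycle, the pentose phosphate branch and the response to low oxygen. They were listed by name, and every probe set that the platform table assigns to 1 of these symbols alone was taken, whatever its signal. Of the 40 genes, 37 have such a probe set, with 58 probe sets in all out of 20832 probe sets of 1 symbol. Pkm, Dlat and Fh have none and were not analysed here. All 37 genes had at least 1 probe set above the filter on weak signals, and 53 of the 58 probe sets passed it.

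Glycolysis splits glucose into pyruvate in the cytosol, and lactate dehydrogenase turns that pyruvate into lactate when it is not sent to the mitochondrion. Pyruvate dehydrogenase admits pyruvate to the citrate cycle, and its kinases close that gate. When oxygen is scarce, the hypoxia-inducible factors (HIFs) escape the prolyl hydroxylases that mark them for destruction and induce many glycolytic genes together with genes such as Vegfa and Bnip3. Early embryonic tissues are known for a strong use of glycolysis.

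Sprague-Dawley rat tissues of 3 kinds were compared at embryonic day 13, each on 3 single-colour arrays. The UB arrays hold pools of about 100 ureteric buds, the epithelial outgrowths that branch into the collecting system of the kidney. The WD+IM arrays hold pools of about 50 Wolffian ducts that kept their attached mesodermal cells, and the WD arrays hold pools of about 100 Wolffian ducts, the tubes from which the buds grow. The buds were freed from the kidney by light trypsin digestion and the WD were taken without treatment, so the effect of trypsin cannot be told apart from that of the tissue. The submitters describe the 3 arrays of each tissue as biological replicates. A p-value here measures only how these pools spread.

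The array medians were 534 to 626 intensity units on the UB arrays, 644 to 897 on the WD+IM arrays and 778 to 862 on the WD arrays. The medians of all UB arrays thus lay below those of all other arrays. Precision is limited by having 3 arrays a tissue. A spiked control separates the groups: the bioC to bioB signal ratio lay between 3.02 and 3.07 for UB and at 3.03 for WD+IM replicate 3, against 0.751 to 0.941 on the other 5 arrays. Because it parts all UB arrays from all WD arrays, a fit with this ratio as a term rests on WD+IM replicate 3 alone for the difference between UB and WD. In UB against WD+IM such a fit compares the UB arrays with WD+IM replicate 3 alone, as does a fit within the arrays of high ratio. In WD+IM against WD it leaves WD+IM replicate 3 out of the difference. For beta-actin the signal at the 3' end over that at the 5' end, a sign of RNA integrity, was 1.48 to 2.30 on the UB arrays, 1.47 to 1.92 on the WD+IM arrays and 2.19 to 4.87 on the WD arrays. Duct epithelium markers (9 of 10 measured) summed to 186504 to 197127 intensity units on the UB arrays, 61059 to 94048 on the WD+IM arrays and 210969 to 231113 on the WD arrays. Mesenchyme markers (10 of 10) summed to 7007 to 10044 units on UB, 219724 to 258892 on WD+IM and 99389 to 136772 on WD arrays. Endothelial markers (11 of 12) summed to 1788 to 2906, 39002 to 40797 and 4730 to 5753 units in the same order of tissues, and red cell markers (11 of 13) to 10447 to 33313, 163335 to 238046 and 185766 to 262853. Among the red cell markers Rhag lay below the pseudocount on all UB arrays. Bud tip markers (6 of 7) summed to 120057 to 140875 units on UB, 13741 to 16501 on WD+IM and 22217 to 27761 on WD arrays, with Wnt11 below the pseudocount on all WD arrays. Cell cycle genes (10 of 10) summed to 227387 to 258299 units on UB, 170076 to 185257 on WD+IM and 151337 to 158695 on WD arrays. These sums do not overlap between tissues, except the red cell sums of WD+IM and WD, and their part in the results was not tested. A sum can hide markers that move apart. Of the 6 bud tip markers, 2 were called higher and 2 lower in WD+IM than in WD. In pooled tissue, fewer cells of a type and less RNA per cell cannot be told apart.

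Most glycolytic genes that differed were higher in the ureteric bud, and both lactate dehydrogenase B and enolase 2 were far lower there. Of the 37 genes, 14 passed the test in UB against WD (37.8%), where 33.0% of all 10812 genes tested did. Of the 14, 10 were higher and 4 lower, that is 27.0% and 10.8% of the 37, against 13.3% and 19.6% of all genes. By position alone, 18 of the 37 had all UB arrays above all WD arrays and 6 had them below (background 22.0% and 29.7%), and 5 of the calls reached 2-fold (background 13.8%). The median log2 difference of the 37 genes was 0.25, and that of all genes was -0.08. In UB against WD+IM, 19 of 37 passed (51.4%, background 30.3%), 14 higher (37.8%, background 13.6%) and 5 lower (13.5%, background 16.6%), with a median of 0.27 for the members and -0.01 for all genes. There 16 lay wholly above and 8 wholly below (background 24.2% and 25.7%), and 8 calls reached 2-fold (background 16%). In WD+IM against WD, 5 of 37 passed (13.5%, background 14.7%), 2 higher and 3 lower (background 6.48% and 8.23%), with medians of -0.06 and -0.01. Wholly above lay 6 and wholly below 7 (background 15.2% and 17.2%), and 2 calls reached 2-fold (background 7.89%). The 3 comparisons share arrays, so they are not independent. A gene passed when its adjusted p was under 0.05 in limma, with Benjamini-Hochberg adjustment over all probe sets tested, and a gene is represented by its brightest probe set. Of the 16 further probe sets tested, 12 had the verdict of the brightest in each comparison, and none was called in the opposite direction. Centring every array on its median moved the median of all genes to 0.38 in UB against WD and 0.35 in UB against WD+IM, and the median of the members to 0.71 and 0.63. The split of higher and lower calls was then 25 and 2 in UB against WD and 19 and 2 in UB against WD+IM, where 40.1% and 36.4% of all genes were called. The 15 genes so added in UB against WD, all as higher, were Hk1, Aldoc, Gapdh, Pgam1, Eno1, Pdhb, Tkt and 8 of the citrate cycle, and the 5 added in UB against WD+IM were Aldoa, Gapdh, Eno1, Cs and Taldo1. After quantile normalization the split was 13 and 5 in UB against WD, 15 and 6 in UB against WD+IM and 4 and 3 in WD+IM against WD. Of all genes, 27.1%, 27.3% and 15.9% were then called. The medians of the members were then 0.15, 0.26 and -0.05, and those of all genes 0.005, 0.04 and 0.004. The fit given next has only WD+IM replicate 3 on the WD+IM side of UB against WD+IM. With the spike ratio as a term, 3 of the 14 calls in UB against WD remained (Egln3, Ldhb and Eno2), where 4.81% of all genes were called, and 9 of the 19 calls in UB against WD+IM, where 14.3% were.

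**Figure D1:**
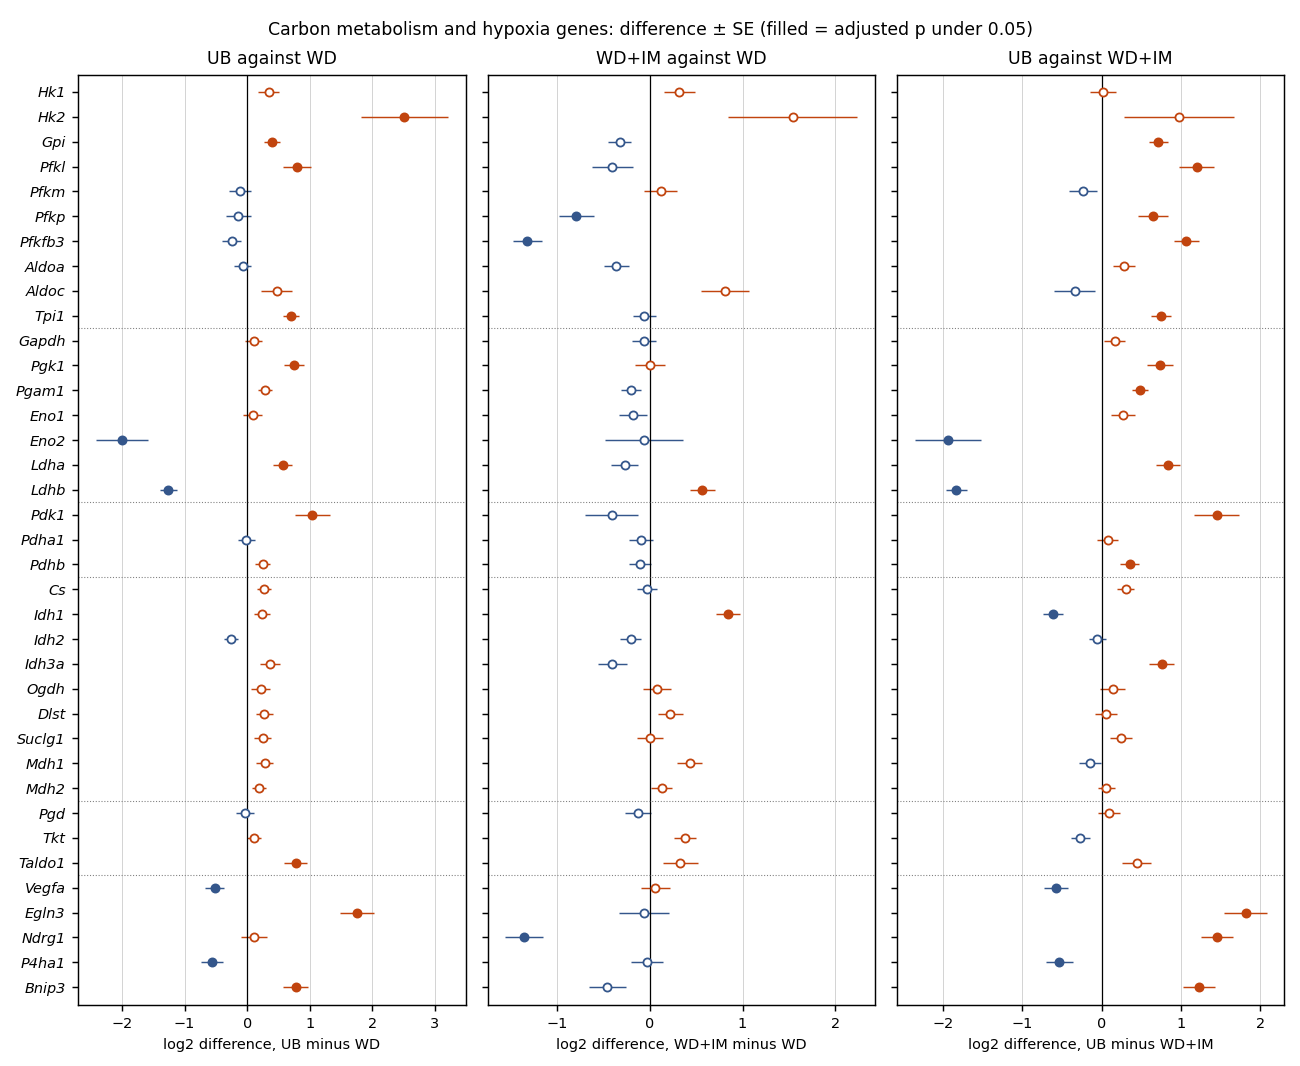
Log2 difference ± SE (x axis, limma, 3 arrays a group, first-named minus second-named tissue) of the 37 genes, 1 row each, with dotted lines between the roles from glucose to triose at the top to the hypoxia response at the bottom. Each panel is 1 comparison with its own x scale, filled points have an adjusted p under 0.05, and Ldhb and Eno2 stand far to the left in both comparisons of UB.

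The promoters of a few members are shown because the genes moved in different patterns: Ldha and Bnip3 were highest in UB, Ldhb was lowest there, and Pfkfb3 was lowest in WD+IM. They were chosen after the values were seen. Each is the 250 bases before the gene's start in the RefSeq promoter table (build GRCr8), 5' to 3' on the gene's strand, with the core letters of HIF response elements, ACGTG and GCGTG on either strand, in capitals. The palindrome CACGTG, the E-box letters, holds ACGTG on both strands and counts as 2 matches.
Ldha: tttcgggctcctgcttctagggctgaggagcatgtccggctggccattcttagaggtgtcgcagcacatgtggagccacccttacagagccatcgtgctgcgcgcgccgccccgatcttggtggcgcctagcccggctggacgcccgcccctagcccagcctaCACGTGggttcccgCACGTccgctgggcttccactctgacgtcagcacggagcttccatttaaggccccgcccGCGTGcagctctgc
Ldhb: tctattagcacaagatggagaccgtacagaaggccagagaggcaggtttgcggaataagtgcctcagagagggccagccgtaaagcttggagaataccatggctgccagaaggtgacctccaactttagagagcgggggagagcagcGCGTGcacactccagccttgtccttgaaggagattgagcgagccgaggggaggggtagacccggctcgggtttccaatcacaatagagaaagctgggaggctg
Bnip3: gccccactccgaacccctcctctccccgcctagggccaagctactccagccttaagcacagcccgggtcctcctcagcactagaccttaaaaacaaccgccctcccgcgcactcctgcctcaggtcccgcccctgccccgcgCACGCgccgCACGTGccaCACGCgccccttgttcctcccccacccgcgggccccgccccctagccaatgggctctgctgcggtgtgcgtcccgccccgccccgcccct
Pfkfb3: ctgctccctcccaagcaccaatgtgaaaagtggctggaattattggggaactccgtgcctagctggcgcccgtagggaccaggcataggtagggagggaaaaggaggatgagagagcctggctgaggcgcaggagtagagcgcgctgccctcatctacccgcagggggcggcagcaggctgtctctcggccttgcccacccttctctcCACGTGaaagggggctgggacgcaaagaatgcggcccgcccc
These windows lie at chr1:106507842-106508091 on the + strand (Ldha), chr4:177177409-177177658 on the - strand (Ldhb), chr1:203154963-203155212 on the - strand (Bnip3) and chr17:71944683-71944932 on the + strand (Pfkfb3). The Ldha window holds 3 ACGTG matches and 1 GCGTG match, with 1 CACGTG among them, between positions -87 and -14 from the start. The Bnip3 window holds 2 ACGTG matches, both in 1 CACGTG, and 2 GCGTG matches, all between -108 and -90. The Pfkfb3 window holds 2 ACGTG matches in 1 CACGTG, at -42 and -41, and the Ldhb window holds 1 GCGTG match, at -103. Of the 37 genes, 34 have an entry, and Idh3a, Pgk1 and Ndrg1 have none. Either motif stood before at least 1 listed start in 21 of the 34 (61.8%), in 58.5% of the 8988 genes tested that have an entry and in 39.6% of all 27457 genes of the table. ACGTG stood in 35.3% of the 34, 23.6% of the tested genes and 18.1% of all genes, and GCGTG in 47.1%, 46.9% and 28.4%. Of the 9 members with an entry that were higher in UB than in WD, ACGTG stood before 2 (22.2%), Ldha and Bnip3, both of which are shown above, against 25% of the 4 lower members and 42.9% of the 21 not called. GCGTG stood before 55.6%, 50% and 42.9% of these. The order differed in UB against WD+IM. There ACGTG stood before 45.5% of the 11 higher members, 20% of the 5 lower and 33.3% of the 18 not called. GCGTG stood before 63.6%, 40% and 38.9% of these, and CACGTG before 36.4%, 0% and 5.56%. These shares rest on few genes and were not tested. Egln3, Hk2, Gpi, Tpi1 and Vegfa had neither motif in these windows, which says only that the letters are not there. A match is a description and not a shown binding site.

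In the upper part of glycolysis, from glucose to triose phosphate, the bud had higher signals of Hk2, Pfkl, Tpi1 and Gpi, and the duct with mesoderm had lower signals of Pfkfb3 and Pfkp. Of these 10 genes, 4 were higher and none lower in UB against WD (median 0.37), 5 were higher and none lower in UB against WD+IM (median 0.68), and none was higher and 2 were lower in WD+IM against WD (median -0.19). Of all genes, 13.3% were higher and 19.6% lower in UB against WD, 13.6% and 16.6% in UB against WD+IM, and 6.48% and 8.23% in WD+IM against WD.

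Hexokinases trap glucose in the cell as glucose 6-phosphate, Hk1 as the form found in most tissues and Hk2 as the form induced by insulin and by HIF. Hk1 gave 3337, 3387 and 3452 intensity units on the UB arrays, 2951, 3560 and 3553 on the WD+IM arrays and 3072, 2769 and 2226 on the WD arrays, each in the order of the replicate number. The UB arrays lie just above the WD arrays and overlap the WD+IM arrays. The difference was 0.34 ± 0.17 in UB against WD, 0.32 ± 0.17 in WD+IM against WD and 0.02 ± 0.17 in UB against WD+IM (log2 ± SE, limma over 9 arrays), and none passed the test. Hk2 gave 1012, 721 and 2287 units on the UB arrays, 958, 560 and 364 on the WD+IM arrays and 192, 21.3 and 584 on the WD arrays. Every UB array is above every WD array, the WD+IM arrays overlap both, and the lowest WD array is under the pseudocount of 46.2. Hk2 was higher in UB than in WD by 2.51 ± 0.70 (adjusted p = 0.0183), and differed by 1.54 ± 0.70 in WD+IM against WD and 0.98 ± 0.70 in UB against WD+IM, neither of which passed. The call in UB against WD was lost without UB replicate 3 (2.06) or WD replicate 2 (1.67), with the beta-actin ratio as a term (1.35) and with the spike ratio as a term (3.44). Without WD replicate 3, Hk2 also passed in WD+IM against WD (2.31).

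Glucose-6-phosphate isomerase (Gpi) makes fructose 6-phosphate, on which phosphofructokinase acts as the main control point of glycolysis. Gpi averaged 38577 ± 943 units in UB, 23482 ± 1715 in WD+IM and 29516 ± 3937 in WD (SD, n = 3 each). It was higher in UB than in WD by 0.39 ± 0.12 and than in WD+IM by 0.72 ± 0.12, and its -0.32 ± 0.12 in WD+IM against WD did not pass. The call in UB against WD held in 9 of 19 alternative settings, whose adjusted p ran from 0.00411 to 0.473. It was lost without UB replicate 1 (0.40), 2 (0.41) or 3 (0.37) or WD replicate 1 (0.28), and without that WD array the WD+IM value of -0.44 passed.

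The 3 phosphofructokinase genes code for the liver (Pfkl), muscle (Pfkm) and platelet (Pfkp) forms of the enzyme, and they did not move alike. Pfkl gave 16403, 17087 and 11258 units on the UB arrays, 4604, 7467 and 7449 on the WD+IM arrays and 9396, 6929 and 9119 on the WD arrays. The UB arrays stand above all others, and WD+IM and WD overlap. Pfkl was higher in UB than in WD by 0.80 ± 0.22 (adjusted p = 0.0175) and than in WD+IM by 1.20 ± 0.22 (adjusted p = 0.00147). Its call in UB against WD was lost without UB replicate 1 (0.72), UB replicate 2 (0.69) or WD replicate 2 (0.66), and both calls were lost with the spike ratio as a term (0.46 and 0.97). Pfkp gave 2149, 2088 and 2094 units on the UB arrays, 1112, 1572 and 1341 on the WD+IM arrays and 1928, 2591 and 2522 on the WD arrays. Here the WD+IM arrays are the low ones, and UB and WD overlap. Pfkp was lower in WD+IM than in WD by -0.79 ± 0.19 (adjusted p = 0.0188), higher in UB than in WD+IM by 0.65 ± 0.19 (adjusted p = 0.0271), and at -0.14 ± 0.19 in UB against WD. The fall in WD+IM was no longer called without WD replicate 2 (-0.71) or WD+IM replicate 1 (-0.66), and the UB call was lost without any 1 of the UB arrays or without WD+IM replicate 1 (0.53 to 0.66). The fall was also lost with the beta-actin ratio as a term (-0.93), under median centring (-0.69), in a fit of the WD+IM and WD arrays alone and within the arrays of low spike ratio (-0.79 in both), and the UB call with the spike ratio as a term (0.64). Pfkm ranged from 4148 to 6701 units on the 9 arrays and passed in no comparison. Of its other tested probe sets, 1 was called higher in UB than in WD (0.70 ± 0.22) and 1, with means of 327 ± 51.4 in UB, 92.6 ± 37.9 in WD+IM and 432 ± 115 in WD, was called lower in WD+IM than in WD (-1.80 ± 0.45) and higher in UB than in WD+IM (1.46 ± 0.45).

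Pfkfb3 makes fructose 2,6-bisphosphate, the strongest activator of phosphofructokinase, and is a known HIF target. It gave 5371, 5775 and 5166 units on the UB arrays, 2213, 2552 and 2987 on the WD+IM arrays and 7324, 6041 and 6065 on the WD arrays. The 3 tissues do not overlap, with WD+IM far below UB and UB just below WD. Pfkfb3 was lower in WD+IM than in WD by -1.32 ± 0.16 (adjusted p = 0.000236) and higher in UB than in WD+IM by 1.07 ± 0.16 (adjusted p = 0.000257), while its -0.25 ± 0.16 in UB against WD did not pass. The call in UB against WD+IM was lost when both tested probe sets were averaged (0.48). The dimmer probe set had 199 to 1041 units on the UB arrays, 208 to 695 on the WD+IM arrays and 457 to 830 on the WD arrays, and differed by -0.11 ± 0.56 in that comparison.

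Aldolase splits fructose 1,6-bisphosphate and triose phosphate isomerase (Tpi1) interconverts the triose phosphates that result. Tpi1 averaged 63756 ± 1366 units in UB, 38074 ± 4396 in WD+IM and 39593 ± 5158 in WD (SD, n = 3 each), higher in UB by 0.69 ± 0.13 against WD and 0.75 ± 0.13 against WD+IM. Aldoa, the broadly expressed aldolase, averaged 61403 ± 7831, 50316 ± 6490 and 64337 ± 6780 units in the same order of tissues and passed in no comparison. Aldoc, the brain form, averaged 832 ± 97.7 units in UB, 1064 ± 89.6 in WD+IM and 597 ± 154 in WD. Its 0.81 ± 0.25 in WD+IM against WD had an adjusted p of 0.0562, ran from 0.0268 to 0.400 over the alternatives, and without WD replicate 3 the difference passed. With the spike ratio as a term the UB against WD calls of Gpi (0.34) and Tpi1 (0.54) were lost.

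**Figure D2:**
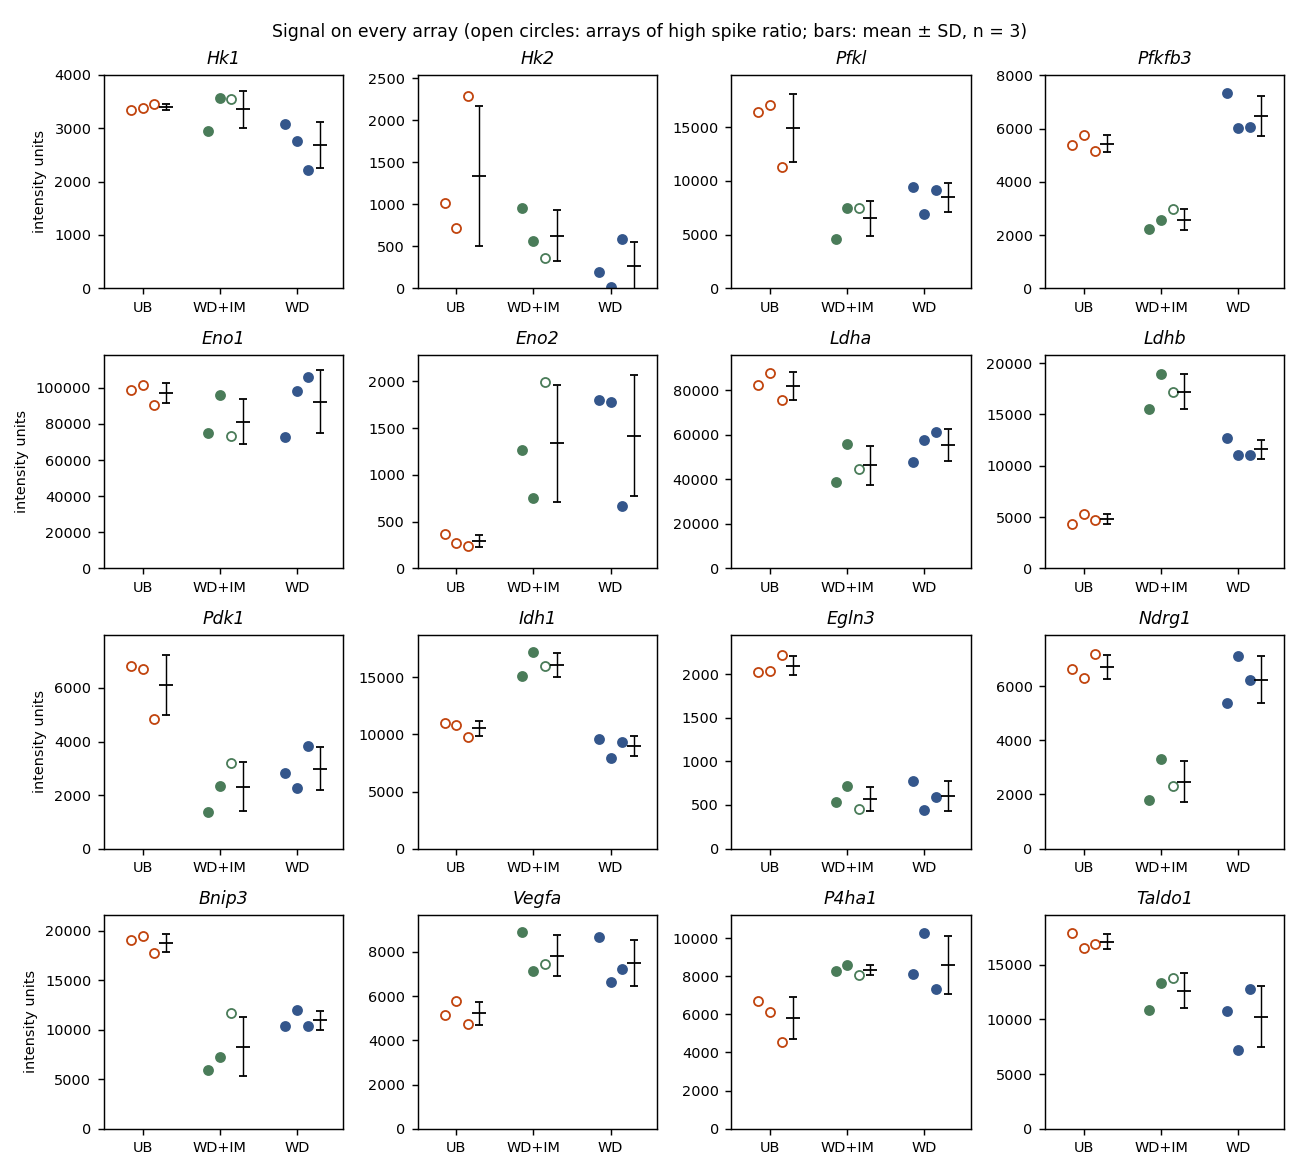
Intensity units (y axis, linear from 0) on each of the 9 arrays for 16 genes, with UB, WD+IM and WD from left to right in each panel and replicates 1 to 3 from left to right in each group. Open circles are the 4 arrays of high spike ratio, bars are the mean ± SD of 3 arrays, and the bar of Hk2 in WD is cut at 0. The 3 UB arrays lie wholly below the others for Ldhb and Eno2 and wholly above them for Ldha, Pdk1, Egln3 and Bnip3.

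In the lower part of glycolysis, from triose phosphate to lactate, Pgk1 and Ldha were higher in the bud than in the duct, and Ldhb and Eno2 were lower. Of the 7 measured genes, 2 were higher and 2 lower in UB against WD (median 0.10), 3 higher and 2 lower in UB against WD+IM (median 0.27), and 1 was higher in WD+IM against WD (median -0.06). The share called is 57.1%, 71.4% and 14.3% of the 7, against 33.0%, 30.3% and 14.7% of all genes.

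Gapdh, which oxidises glyceraldehyde 3-phosphate, is measured only by the control probe sets of the array at the 3' end, middle and 5' end. The 3' set averaged 102637 ± 4988 units in UB, 91934 ± 12006 in WD+IM and 95975 ± 13041 in WD, and none of the 3 sets passed in any comparison. Quantile normalization called Gapdh higher in UB against WD (0.44) and against WD+IM (0.34), and so did median centring (0.56 and 0.53). Phosphoglycerate kinase (Pgk1), which makes ATP in the next step, averaged 75752 ± 10613 units in UB, 45483 ± 7845 in WD+IM and 45193 ± 6795 in WD. It was higher in UB by 0.75 ± 0.16 against WD and 0.74 ± 0.16 against WD+IM, and a further bright probe set gave 1.57 ± 0.15 and 1.07 ± 0.15. This further probe set averaged 51194 ± 1972 units in UB, 24437 ± 2970 in WD+IM and 17408 ± 3449 in WD, and was also called higher in WD+IM than in WD (0.50 ± 0.15, adjusted p = 0.0494), where the brightest was at 0.01 ± 0.16. Phosphoglycerate mutase (Pgam1) averaged 70131 ± 4829, 50069 ± 2501 and 57461 ± 1411 units in UB, WD+IM and WD. It was higher in UB than in WD+IM by 0.48 ± 0.10, and its 0.29 ± 0.10 in UB against WD missed the threshold at an adjusted p of 0.0572 (0.00544 to 0.529 over the alternatives). With the spike ratio as a term, the calls of Pgk1 (0.33 against WD and 0.46 against WD+IM) and Pgam1 (0.46 against WD+IM) were lost.

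Enolase makes phosphoenolpyruvate, Eno1 in most tissues and Eno2 in neurons. Eno1 gave 98800, 101795 and 90758 units on the UB arrays, 74780, 95765 and 73181 on the WD+IM arrays and 72906, 98364 and 105800 on the WD arrays. The groups overlap throughout, and its 0.09 ± 0.15 in UB against WD, -0.18 ± 0.15 in WD+IM against WD and 0.27 ± 0.15 in UB against WD+IM did not pass, although quantile normalization called it higher in UB (0.37 against WD and 0.42 against WD+IM), as did median centring (0.55 and 0.63). Eno2 gave 364, 275 and 242 units on the UB arrays, 1266, 750 and 1998 on the WD+IM arrays and 1799, 1782 and 670 on the WD arrays. All UB arrays are below all others, while WD+IM and WD overlap and spread widely. Eno2 was lower in UB than in WD by -2.00 ± 0.42 (adjusted p = 0.00435) and than in WD+IM by -1.94 ± 0.42 (adjusted p = 0.00452), and differed by -0.06 ± 0.42 in WD+IM against WD. Against WD the call was lost with the beta-actin ratio as a term (-1.29).

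Lactate dehydrogenase A, the muscle form, is known for turning pyruvate into lactate, and lactate dehydrogenase B, the heart form, is known to favour the reverse step. Ldha gave 82452, 87784 and 75483 units on the UB arrays, 38703, 55703 and 44566 on the WD+IM arrays and 47689, 57628 and 61314 on the WD arrays. Its UB arrays stand above the rest, and WD+IM overlaps WD. Ldha was higher in UB than in WD by 0.57 ± 0.15 (adjusted p = 0.0142) and than in WD+IM by 0.84 ± 0.15 (adjusted p = 0.00119), with -0.27 ± 0.15 in WD+IM against WD. Ldhb gave 4315, 5345 and 4761 units on the UB arrays, 15554, 18908 and 17194 on the WD+IM arrays and 12686, 11039 and 11038 on the WD arrays. The 3 tissues are wholly apart, with UB lowest and WD+IM highest. Ldhb was lower in UB than in WD by -1.26 ± 0.14 and than in WD+IM by -1.83 ± 0.14 (adjusted p = 9.35e-07), and higher in WD+IM than in WD by 0.57 ± 0.14 (adjusted p = 0.0161). The fall of Ldhb in UB was called in both comparisons under all alternatives run, the spike ratio as a term among them (-1.27 against WD). Its rise in WD+IM was not called without WD+IM replicate 2 (0.50), with the beta-actin ratio as a term (0.75), under median centring (0.66) or within the arrays of low spike ratio (0.57). The call of Ldha in UB against WD was lost without UB replicate 1 (0.56), UB replicate 2 (0.51) or WD replicate 1 (0.46), with the beta-actin ratio (0.51) and with the spike ratio (0.62).

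**Figure D3:**
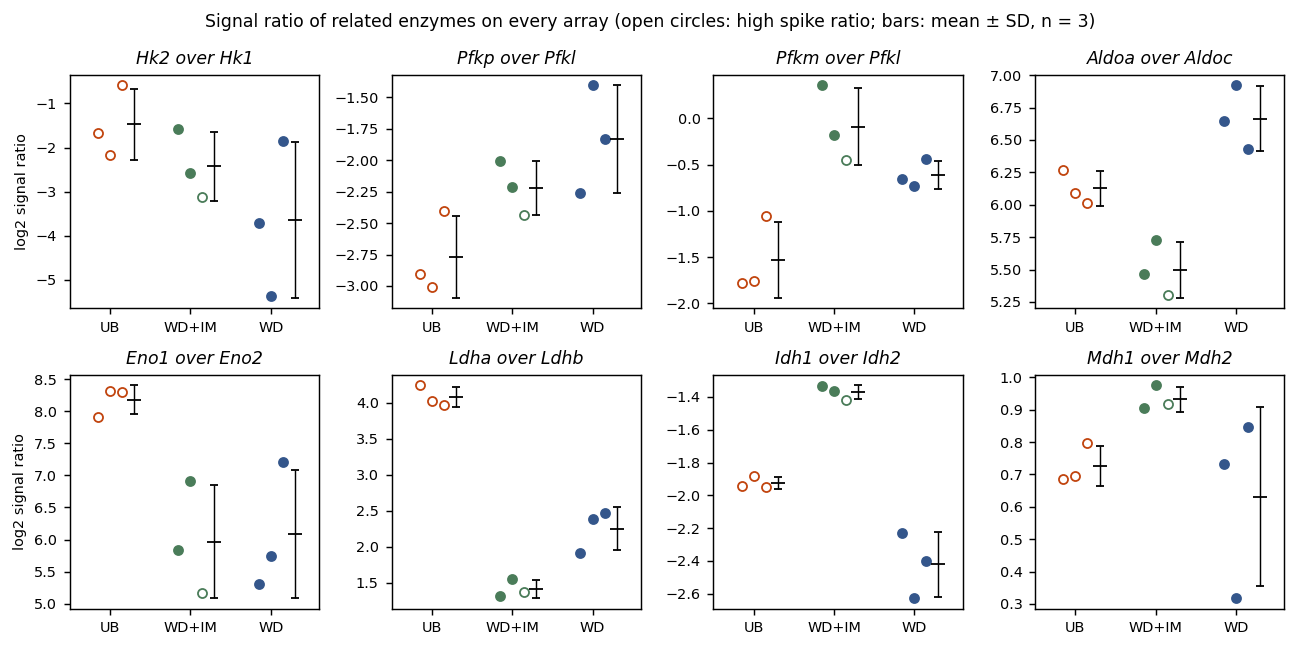
Log2 signal ratio (y axis, scale differs by panel) of 8 pairs of related enzymes on each array, with UB, WD+IM and WD from left to right, open circles for the arrays of high spike ratio and bars for the mean ± SD of 3 arrays. The ratio of Ldha over Ldhb averages 4.08 in UB, 1.41 in WD+IM and 2.25 in WD, with no overlap.

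Related enzymes were set against each other within each array, as a log2 ratio. This cancels scaling of the whole array, but not fully for weak signals such as Hk2 and Eno2, because of the pseudocount. The level of such a ratio depends on the probe sets, and only its change between tissues can be read, as unequal change of the pair. The log2 ratio of Ldha over Ldhb was 4.08 ± 0.14 in UB, 1.41 ± 0.13 in WD+IM and 2.25 ± 0.30 in WD (SD, n = 3 each), so that it was 1.83 higher in UB than in WD, 2.67 higher in UB than in WD+IM and differed by -0.84 in WD+IM against WD. For Eno1 over Eno2 it was 8.17 ± 0.23 in UB, 5.97 ± 0.88 in WD+IM and 6.09 ± 0.99 in WD, with UB wholly above both. Aldoa over Aldoc was 6.13 ± 0.13 in UB, 5.50 ± 0.22 in WD+IM and 6.67 ± 0.25 in WD, wholly apart in all 3 comparisons, and Idh1 over Idh2, the cytosolic over the mitochondrial NADP-dependent enzyme, was -1.92 ± 0.03, -1.37 ± 0.04 and -2.42 ± 0.20 in the same order, also wholly apart. Pfkp over Pfkl was lower in UB (-2.77 ± 0.32) than in WD (-1.83 ± 0.43) without overlap, and so was Pfkm over Pfkl (-1.53 ± 0.41 in UB, -0.09 ± 0.41 in WD+IM and -0.61 ± 0.15 in WD). Hk2 over Hk1 overlapped in all 3 comparisons, and Mdh1 over Mdh2 was wholly higher in WD+IM (0.93 ± 0.04) than in UB (0.73 ± 0.06) and WD (0.63 ± 0.28). In all, 6 of 8 ratios were wholly apart in UB against WD, 4 in WD+IM against WD and 6 in UB against WD+IM. No share over other gene pairs was computed. Of all single genes, 22.0% lay wholly above and 29.7% wholly below in UB against WD. In WD+IM against WD these shares were 15.2% and 17.2%, and in UB against WD+IM 24.2% and 25.7%. With 3 arrays against 3, the exact two-sided permutation test cannot go below 0.10, and each ratio that was wholly apart has that value, with an adjusted p of 0.15 over the 24 tests.

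At the pyruvate gate the kinase that closes it was higher in the bud. Pdk1 phosphorylates and so inhibits pyruvate dehydrogenase and is a known HIF target. It gave 6822, 6709 and 4825 units on the UB arrays, 1384, 2338 and 3207 on the WD+IM arrays and 2820, 2265 and 3850 on the WD arrays. The UB arrays are above all others, and WD+IM overlaps WD. Pdk1 was higher in UB than in WD by 1.04 ± 0.29 (adjusted p = 0.0174) and than in WD+IM by 1.45 ± 0.29 (adjusted p = 0.00249), with -0.41 ± 0.29 in WD+IM against WD, and its other probe set gave 1.13 ± 0.20 and 1.28 ± 0.20 for the comparisons of UB, both called. The call in UB against WD was lost without UB replicate 1 (0.96), UB replicate 2 (0.97) or WD replicate 2 (0.87), with the beta-actin ratio (1.18) and with the spike ratio (0.23), which also ended the call against WD+IM (0.90). Pdhb and Pdha1 code for subunits of the enzyme itself. Pdhb averaged 13958 ± 669 units in UB, 10908 ± 472 in WD+IM and 11744 ± 860 in WD, and was called higher in UB than in WD+IM (0.35 ± 0.12, adjusted p = 0.0428), a call that was lost when any 1 of the 6 arrays was left out (0.32 to 0.39) and held in 6 of 20 alternative settings. Pdha1 averaged 15071 ± 830, 14266 ± 664 and 15284 ± 2159 units in UB, WD+IM and WD and passed in none. A dimmer Pdha1 probe set was called higher in UB than in WD (1.57 ± 0.41), with 3614 to 7947 units in UB and 1001 to 3898 in WD, which overlap.

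In the citrate cycle and its shuttles, 0 of 9 measured genes passed limma's test in UB against WD, where 33.0% of all genes did. The differences of the 9 ran from -0.26 to 0.36 with a median of 0.25. At an unadjusted p under 0.05 the count is 3 of the 9, and 4857 of all 10812 genes tested. By position, 5 of the 9 had all UB arrays above all WD arrays, where 22.0% of all genes did, and 1 (Idh2) had them all below, as 29.7% of all genes did. In UB against WD+IM, Idh3a was higher and Idh1 lower (22.2% called, background 30.3%, median 0.06). In WD+IM against WD, Idh1 was higher (11.1% called, background 14.7%, median 0.08).

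Idh1, the isocitrate dehydrogenase of the cytosol and peroxisome that makes NADPH, gave 11020, 10826 and 9807 units on the UB arrays, 15088, 17205 and 16002 on the WD+IM arrays and 9628, 7960 and 9313 on the WD arrays. The tissues are wholly apart, with WD+IM highest. Idh1 was higher in WD+IM than in WD by 0.84 ± 0.13 (adjusted p = 0.000938) and lower in UB than in WD+IM by -0.61 ± 0.13 (adjusted p = 0.00343), and its 0.24 ± 0.13 in UB against WD did not pass. The fall in UB against WD+IM was not called under median centring (-0.24) or with the spike ratio as a term (-0.60). Idh3a, the catalytic subunit of the NAD-dependent isocitrate dehydrogenase of the cycle, averaged 4619 ± 156 units in UB, 2732 ± 429 in WD+IM and 3600 ± 330 in WD, higher in UB than in WD+IM by 0.76 ± 0.16 (0.71 and not called with the spike ratio as a term). Idh2, the mitochondrial NADP-dependent form, averaged 40169 ± 2268, 41768 ± 3226 and 48103 ± 2326 units in UB, WD+IM and WD and passed in none.

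Citrate synthase (Cs), which starts the cycle, averaged 20134 ± 876 units in UB, 16273 ± 194 in WD+IM and 16656 ± 1039 in WD. Its 0.27 ± 0.11 in UB against WD and 0.31 ± 0.11 in UB against WD+IM did not pass, though all UB arrays lay above all others, and a dimmer Cs probe set was called higher in UB than in WD (0.85 ± 0.25). Ogdh and Dlst, subunits of the 2-oxoglutarate dehydrogenase complex, differed by 0.22 ± 0.15 and 0.27 ± 0.14 in UB against WD, and Suclg1, a subunit of succinyl-CoA ligase, by 0.25 ± 0.14. Malate dehydrogenase of the mitochondrion (Mdh2) differed by 0.19 ± 0.11 and that of the cytosol (Mdh1) by 0.28 ± 0.14, which passed without WD replicate 3 (0.40). Mdh1 averaged 27453 ± 2520 units in UB, 30333 ± 1256 in WD+IM and 22710 ± 3803 in WD. Its 0.43 ± 0.14 in WD+IM against WD (adjusted p = 0.0598, 0.0240 to 0.526 over the alternatives) also passed without WD replicate 3 (0.55). A dimmer Mdh1 probe set gave -0.20 ± 0.17 in UB against WD, of the opposite sign and not called. It was called lower in UB than in WD+IM (-0.49 ± 0.17, limma adjusted p = 0.0478), where the brightest was at -0.15 ± 0.14 and not called. Under median centring, Cs, Idh1, Idh3a, Ogdh, Dlst, Suclg1, Mdh1 and Mdh2 were all called higher in UB than in WD.

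In the pentose phosphate branch, which makes NADPH and ribose for nucleotides, 1 of 3 genes passed in UB against WD (background 33.0%). Transaldolase (Taldo1) averaged 17094 ± 710 units in UB, 12626 ± 1567 in WD+IM and 10250 ± 2796 in WD, with every UB array above every other array. It was higher in UB than in WD by 0.77 ± 0.19 (adjusted p = 0.00925), and its 0.44 ± 0.19 against WD+IM did not pass. The call was lost with the beta-actin ratio (0.75) and with the spike ratio (0.58). Transketolase (Tkt) averaged 22995 ± 884, 27827 ± 3212 and 21315 ± 1033 units in UB, WD+IM and WD, with 0.38 ± 0.12 in WD+IM against WD at an adjusted p of 0.0544 (0.0422 to 0.447 over the alternatives). Pgd, the phosphogluconate dehydrogenase of the oxidative arm, averaged 13340 ± 512, 12564 ± 1186 and 13810 ± 2187 units and passed in no comparison.

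The 5 genes of the hypoxia response did not move together. Egln3 and Bnip3 were higher and Vegfa and P4ha1 lower in UB than in WD. Against WD+IM, Egln3, Ndrg1 and Bnip3 were higher and Vegfa and P4ha1 lower in UB, and in WD+IM against WD only Ndrg1 passed, as lower. In this order of comparisons, 4, 5 and 1 of the 5 genes were called, against 33.0%, 30.3% and 14.7% of all genes. The medians were 0.11, 1.23 and -0.06 for these comparisons.

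Egln3 is a prolyl hydroxylase that marks HIF for destruction and is itself induced by HIF. It gave 2027, 2035 and 2221 units on the UB arrays, 531, 723 and 458 on the WD+IM arrays and 775, 438 and 591 on the WD arrays. The UB arrays are far above all others, which overlap each other. Egln3 was higher in UB than in WD by 1.76 ± 0.27 (adjusted p = 0.000553) and than in WD+IM by 1.82 ± 0.27 (adjusted p = 0.000274), with -0.06 ± 0.27 in WD+IM against WD. Both calls held under every alternative, with 2.16 against WD where the spike ratio was a term.

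Bnip3, a protein of the outer mitochondrial membrane that promotes the removal of mitochondria, gave 19034, 19498 and 17742 units on the UB arrays, 5945, 7269 and 11688 on the WD+IM arrays and 10429, 12044 and 10395 on the WD arrays. All UB arrays are above the rest, and within WD+IM the array of high spike ratio, replicate 3, is the highest. Bnip3 was higher in UB than in WD by 0.78 ± 0.20 (adjusted p = 0.0138) and than in WD+IM by 1.23 ± 0.20 (adjusted p = 0.000675), and its -0.45 ± 0.20 in WD+IM against WD did not pass. With the spike ratio as a term the difference in UB against WD was -0.050 ± 0.23, and without WD+IM replicate 3 the WD+IM value of -0.73 passed. For Bnip3, as for every gene, the difference of UB against WD cannot be told apart from the spike ratio except through WD+IM replicate 3.

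Ndrg1, a cytoplasmic protein induced by stress and low oxygen, gave 6626, 6296 and 7176 units on the UB arrays, 1800, 3303 and 2331 on the WD+IM arrays and 5370, 7109 and 6234 on the WD arrays. The WD+IM arrays are low, and UB and WD overlap. Ndrg1 was lower in WD+IM than in WD by -1.35 ± 0.20 (adjusted p = 0.00103) and higher in UB than in WD+IM by 1.46 ± 0.20 (adjusted p = 0.000184), with 0.11 ± 0.20 in UB against WD. A dimmer probe set gave -1.39 ± 0.47 in WD+IM against WD, not called, and 1.97 ± 0.47 in UB against WD+IM, called. Duct epithelium marker sums were likewise lowest on the WD+IM arrays, at 61059 to 94048 units, and their part in the falls of Ndrg1, Pfkfb3 and Pfkp there was not tested.

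Vegfa, the growth factor that draws in blood vessels, and P4ha1, a subunit of the prolyl 4-hydroxylase that modifies collagen, were lower in the bud. Vegfa gave 5162, 5781 and 4732 units on the UB arrays, 8911, 7156 and 7439 on the WD+IM arrays and 8667, 6655 and 7209 on the WD arrays. P4ha1 gave 6724, 6124 and 4569 units on the UB arrays, 8299, 8608 and 8065 on the WD+IM arrays and 8109, 10292 and 7348 on the WD arrays. For both genes all UB arrays are below all others, and WD+IM overlaps WD. Vegfa differed by -0.52 ± 0.15 in UB against WD (adjusted p = 0.0242) and -0.58 ± 0.15 in UB against WD+IM (adjusted p = 0.0142), and P4ha1 by -0.56 ± 0.17 (adjusted p = 0.0275) and -0.53 ± 0.17 (adjusted p = 0.0379). A dimmer Vegfa probe set gave 0.75 ± 0.60 in UB against WD and was not called, and with both Vegfa probe sets averaged the difference was 0.12 in UB against WD, of the opposite sign, and -0.42 in UB against WD+IM, neither of them called. With the beta-actin ratio as a term the falls in UB against WD were not called (-0.37 for Vegfa and -0.39 for P4ha1). Under median centring these 4 falls were not called (-0.06 and -0.22 for Vegfa, -0.10 and -0.17 for P4ha1), and the spike ratio as a term ended them as well (-0.41 and -0.51 for Vegfa, -0.50 and -0.49 for P4ha1). Vegfa lost its call against WD without UB replicate 1 (-0.51), UB replicate 3 (-0.45) or WD replicate 1 (-0.41), and against WD+IM without UB replicate 1 (-0.57), UB replicate 3 (-0.51) or WD+IM replicate 1 (-0.48). P4ha1 lost its call against WD without UB replicate 3 (-0.40), WD replicate 1 (-0.60) or WD replicate 2 (-0.43), and against WD+IM without any of 5 of the 6 arrays (-0.37 to -0.58), UB replicate 1 being the exception.

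Other genes of the same pathways were taken from lists of 76 names, of which 66 have a probe set and 58 passed the filter. Of the 58, 14 were higher and 8 lower in UB against WD (37.9% called), 15 higher and 9 lower in UB against WD+IM (41.4%), and 7 higher and 6 lower in WD+IM against WD (22.4%), beside the 33.0%, 30.3% and 14.7% of all genes. Their medians were 0.15, 0.02 and 0.03. Median centring gave 28 higher and 3 lower, 21 and 6, and 7 and 3 in that order of comparisons. It called 40.1%, 36.4% and 11.1% of all genes. Quantile normalization gave 14 and 4, 13 and 7, and 7 and 7 in the same order, where 27.1%, 27.3% and 15.9% of all genes were called. With the spike ratio as a term, 2 of the 22 calls in UB against WD remained, Higd1a (1.20) and Me3 (-1.79), and 11 of the 24 in UB against WD+IM. Of the genes named next, those of Acly, Egln2, Got2, P4ha2, Pdk3, Pfkfb2, Pgm2 and Rpe in UB against WD+IM were lost. In WD+IM against WD, the calls of Angptl4, Higd1a, Me1, Me2 and Mxi1 were lost within the arrays of low spike ratio, where 8 of the 13 remained, and those of Angptl4, Arnt2, Higd1a, Mxi1 and Slc16a3 were lost with the beta-actin ratio as a term, where 7 remained. That ratio also ended the calls of Me1, Pfkfb2 and Pgm1 in UB against WD, where 13 of the 22 remained. Within the arrays of low spike ratio, 7.87% of all genes were called in WD+IM against WD. With the beta-actin ratio the share was 5.16% there and 19.1% in UB against WD.

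**Figure D4:**
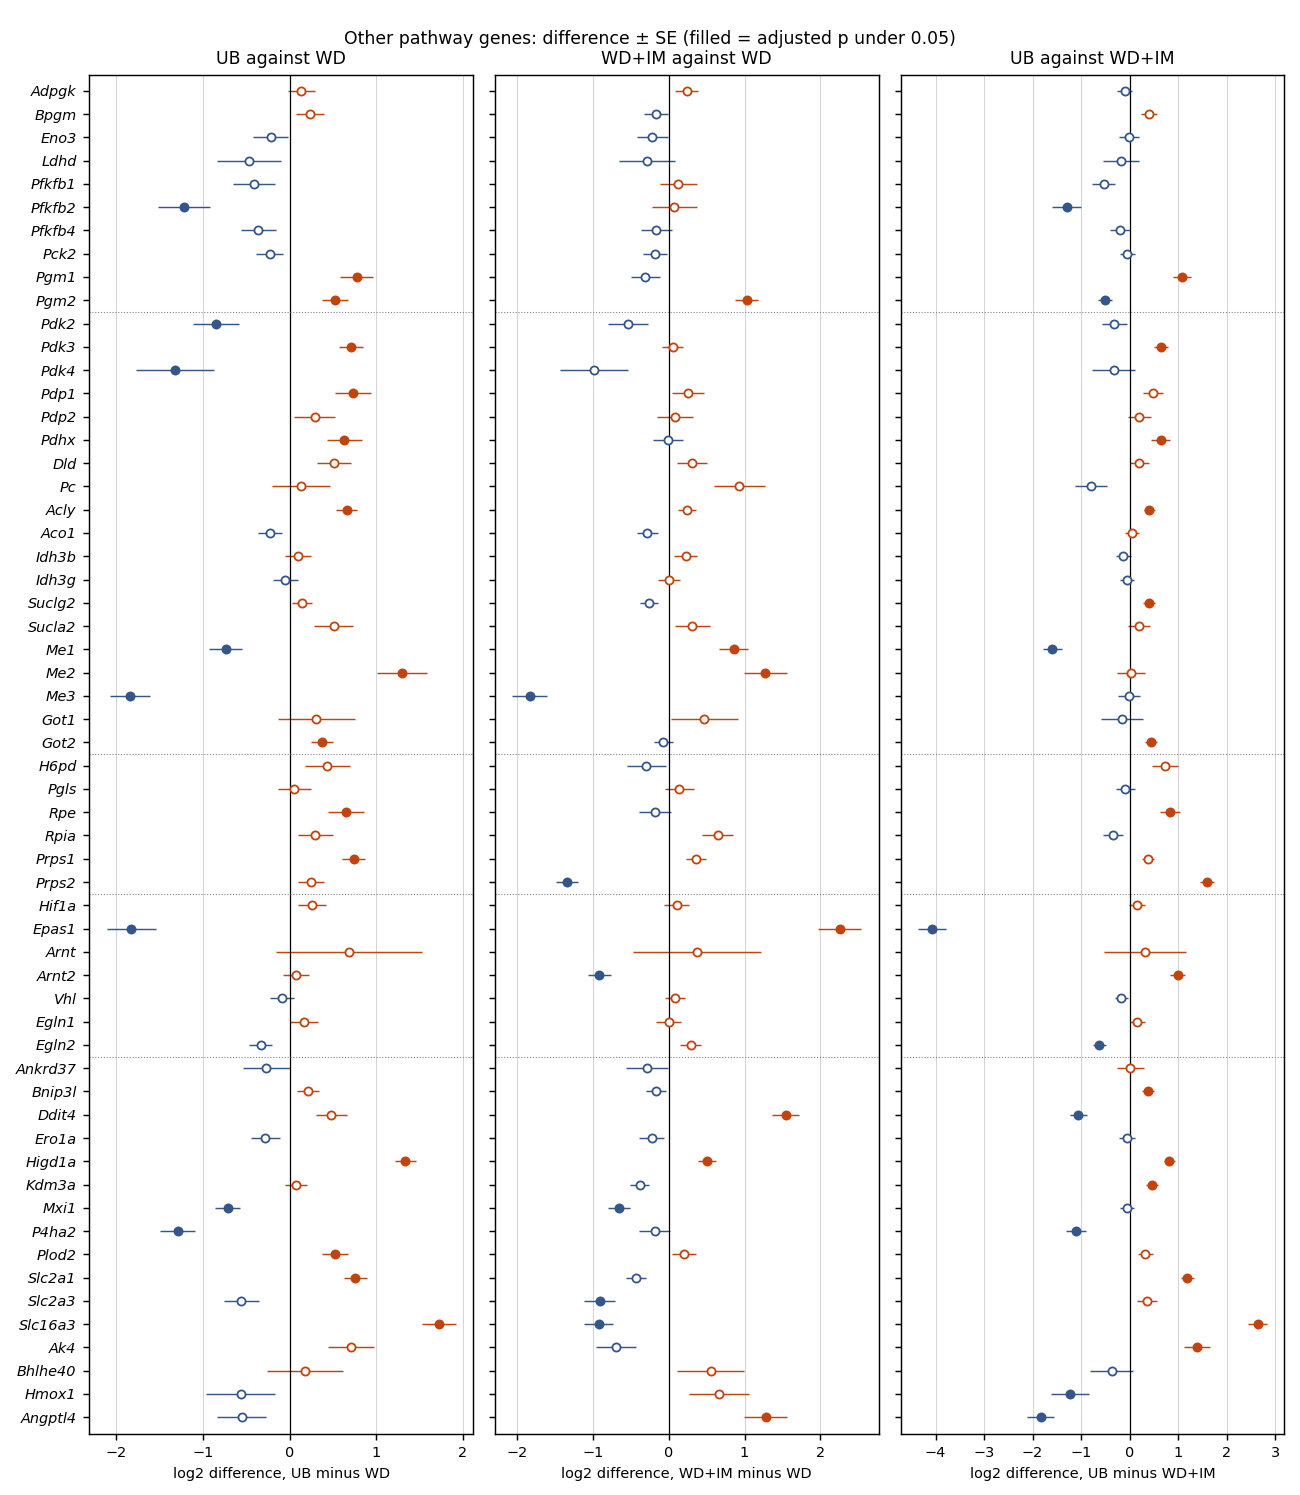
Log2 difference ± SE (x axis, limma, 3 arrays a group, first-named minus second-named tissue) of 58 further pathway genes, with dotted lines between the lists of glycolysis, pyruvate and citrate cycle, pentose phosphate, oxygen sensing and hypoxia targets from top to bottom. Each panel has its own x scale, filled points have an adjusted p under 0.05, and Epas1 is the point farthest to the left in UB against WD+IM, at -4.08.

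Among the oxygen sensors, 7 of 9 listed genes were tested. Hif1a, the HIF subunit found in most cells, averaged 30123 ± 3717 units in UB, 27252 ± 5437 in WD+IM and 25088 ± 2420 in WD and passed in no comparison. Epas1, which codes for HIF-2 alpha and is prominent in endothelium, averaged 231 ± 18.6 units in UB, 4660 ± 772 in WD+IM and 979 ± 348 in WD. It was lower in UB than in WD by -1.82 ± 0.28, higher in WD+IM than in WD by 2.25 ± 0.28 and lower in UB than in WD+IM by -4.08 ± 0.28, and the first of these was not called with the spike ratio as a term (-1.46). Endothelial marker sums moved the same way, at 1788 to 2906 units in UB, 39002 to 40797 in WD+IM and 4730 to 5753 in WD, and their part in the Epas1 differences was not tested. Arnt2, a partner of the HIF subunits, averaged 17607 ± 1403 units in UB, 8854 ± 921 in WD+IM and 16808 ± 3029 in WD, lower in WD+IM than in WD by -0.91 ± 0.15 and higher in UB than in WD+IM by 0.99 ± 0.15. The fall of Arnt2 in WD+IM was not called with the beta-actin ratio as a term (-0.87) or with its probe sets averaged (-0.45). Egln2, a further HIF prolyl hydroxylase, was lower in UB than in WD+IM by -0.62 ± 0.13, a call lost under median centring (-0.26), with the spike ratio as a term and within the arrays of high spike ratio (-0.53 in both).

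Other hypoxia targets, with 17 of 20 tested, moved both ways, with 4 higher and 2 lower in UB against WD, 6 and 4 in UB against WD+IM and 3 and 3 in WD+IM against WD. The share called is 35.3%, 58.8% and 35.3% of the 17, against 33.0%, 30.3% and 14.7% of all genes. Slc16a3, the transporter that exports lactate, averaged 9251 ± 838 units in UB, 1463 ± 317 in WD+IM and 2789 ± 431 in WD, higher in UB by 1.72 ± 0.19 against WD and 2.64 ± 0.19 against WD+IM, and lower in WD+IM than in WD by -0.92 ± 0.19. Slc2a1, the widespread glucose transporter GLUT1, averaged 14513 ± 1101 units in UB, 6323 ± 172 in WD+IM and 8598 ± 1151 in WD, higher in UB by 0.76 ± 0.13 and 1.19 ± 0.13. Higd1a, a mitochondrial protein, averaged 15998 ± 522 units in UB, 9035 ± 695 in WD+IM and 6322 ± 309 in WD, higher in UB by 1.33 ± 0.12 and 0.82 ± 0.12 and in WD+IM over WD by 0.51 ± 0.12. The calls of Slc16a3 (1.31) and Slc2a1 (0.70) in UB against WD were lost with the spike ratio as a term, and that of Slc16a3 in WD+IM against WD with the beta-actin ratio as a term (-0.97) and under median centring (-0.82). The call of Higd1a in WD+IM against WD was lost in 8 of 20 settings. It was lost without WD+IM replicate 3, with the spike ratio as a term and within the arrays of low spike ratio (0.46 in each). All 3 of these leave WD+IM replicate 3 out of the difference, so they are not separate checks. It was also lost with the beta-actin ratio as a term (0.59), under median centring (0.61) and in a fit of the WD+IM and WD arrays alone (0.51). The same held with its probe sets averaged (0.31) and with a 2-fold minimum.

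P4ha2, a relative of P4ha1, was lower in UB than in WD (-1.29 ± 0.20) and WD+IM (-1.10 ± 0.20), and Angptl4, a secreted inhibitor of lipoprotein lipase, was lower in UB than in WD+IM (-1.83 ± 0.28) and higher in WD+IM than in WD (1.28 ± 0.28). The last of these was not called with the beta-actin ratio as a term (1.38) or within the arrays of low spike ratio (1.26). Ddit4, an inhibitor of growth signalling under stress, was higher in WD+IM than in WD (1.54 ± 0.18), and Mxi1, an antagonist of MYC, was lower there (-0.66 ± 0.14). The call of Mxi1 was lost with the beta-actin ratio as a term (-0.75), under median centring (-0.56), within the arrays of low spike ratio (-0.70) and with its probe sets averaged (-0.15).

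Of 10 other glycolytic genes tested, 2 were higher and 1 lower in UB against WD, that is 30.0%, where 33.0% of all genes were called. Pgm1, a phosphoglucomutase, was higher in UB by 0.78 ± 0.19 against WD (0.71 and not called without UB replicate 1) and 1.08 ± 0.19 against WD+IM. Pfkfb2, a relative of Pfkfb3, averaged 271 ± 11.1 units in UB, 735 ± 75.7 in WD+IM and 709 ± 205 in WD, lower in UB by -1.22 ± 0.30 and -1.29 ± 0.30. Quantile normalization ended both calls of Pfkfb2 (-0.56 against WD and -0.78 against WD+IM), and median centring (-0.76) and averaging its probe sets (-0.54) ended the call against WD. Pgm2 was higher in WD+IM than in WD by 1.03 ± 0.15 and in UB than in WD by 0.52 ± 0.15, and lower in UB than in WD+IM by -0.51 ± 0.15. Its call in UB against WD was lost without UB replicate 1 (0.48), UB replicate 3 (0.53) or WD replicate 3 (0.44), and in UB against WD+IM without any of 5 of the 6 arrays (-0.45 to -0.55), WD+IM replicate 2 being the exception, and under median centring (-0.14).

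Around pyruvate and the citrate cycle, 6 of 19 tested genes were higher and 4 lower in UB against WD, 5 and 1 in UB against WD+IM, and 2 and 1 in WD+IM against WD. The share called is 52.6%, 31.6% and 15.8% of the 19, against 33.0%, 30.3% and 14.7% of all genes. The 3 malic enzymes, which turn malate into pyruvate, each had a pattern of their own. Me1, the cytosolic form, averaged 1239 ± 184 units in UB, 3804 ± 332 in WD+IM and 2095 ± 368 in WD, with -0.73 ± 0.19 in UB against WD, 0.86 ± 0.19 in WD+IM against WD and -1.59 ± 0.19 in UB against WD+IM, all called. The first of these calls was lost without UB replicate 3 (-0.62) or WD replicate 1 (-0.60), under median centring (-0.27) and under quantile normalization (-0.54). Me2 averaged 2280 ± 323, 2263 ± 494 and 945 ± 382 units in UB, WD+IM and WD, and was higher than in WD in both UB (1.30 ± 0.29) and WD+IM (1.27 ± 0.29). Me3 averaged 1311 ± 180, 1337 ± 358 and 4834 ± 951 units in the same order, lower than in WD in both UB (-1.84 ± 0.23) and WD+IM (-1.83 ± 0.23). Pdk3, a further kinase of pyruvate dehydrogenase, was higher in UB by 0.71 ± 0.14 against WD and 0.65 ± 0.14 against WD+IM. Acly, which makes cytosolic acetyl-CoA from citrate, was higher in UB by 0.66 ± 0.12 and 0.41 ± 0.12, and Got2, the mitochondrial aspartate aminotransferase, by 0.45 ± 0.12 against WD+IM. The call of Acly against WD+IM was lost without UB replicate 1, 2 or 3 or WD+IM replicate 1 or 3 (0.37 to 0.44) and under quantile normalization (0.29), and that of Got2 without UB replicate 1, UB replicate 2 or WD+IM replicate 1 (0.34 to 0.43) and with its probe sets averaged (0.18).

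In the rest of the pentose phosphate branch, 6 of 9 genes were tested, with 2 called in UB against WD, 2 in UB against WD+IM and 1 in WD+IM against WD, that is 33.3%, 33.3% and 16.7%, near the 33.0%, 30.3% and 14.7% of all genes. Prps1 and Prps2, which make the ribose donor of nucleotides, differed in pattern. Prps1 was higher in UB than in WD by 0.74 ± 0.13. Prps2 averaged 19589 ± 2458 units in UB, 6497 ± 1083 in WD+IM and 16420 ± 286 in WD, lower in WD+IM than in WD by -1.34 ± 0.15 and higher in UB than in WD+IM by 1.59 ± 0.15. Rpe, ribulose-phosphate epimerase, was higher in UB than in WD by 0.65 ± 0.21 and than in WD+IM by 0.83 ± 0.21, and the first call was lost without any of 5 of the 6 arrays (0.48 to 0.69), WD replicate 1 being the exception, and the second without WD+IM replicate 2 (0.61).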

How the data were processed

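Intensities for 31099 probe sets on 9 arrays were analysed as the authors deposited them. The software named in the submitters' processing notes is GCOS, with version and algorithm not given in the sources used here. The values are linear, and all arrays share a trimmed mean of about 2501 intensity units (2% left out at each end), so each difference is relative to the rest of the array. Detection calls were not used.

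Gene symbols came from the platform table. The 51 control probe sets that name no gene were left out, and those of Gapdh and Hk1 were kept. A pseudocount of 46.2, the 10th percentile of all values, was added before the log2 step, which understates differences of weak genes. The 20340 probe sets (10812 genes) that exceeded the 40th percentile of their array on at least 3 of 9 arrays were tested. limma 3.58.1 in R 4.3.3 was fitted to all 9 arrays with group as the only term and a mean-variance trend (6 residual and 6.09 prior degrees of freedom), with Benjamini-Hochberg adjustment within a comparison. The procedure was checked on simulated data. Differences are the first-named group minus the second, and each gene is given by its probe set of the highest mean.

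Array values are printed for 10 fixed genes and for the 5 largest rises and 5 largest falls in each comparison among called members whose groups do not overlap. From each list of other genes up to 4 with the smallest p are named in a comparison, and values of a gene so named are also given for the other comparisons. The members and lists were chosen with earlier results of these data known. Alternatives were other scalings, pseudocounts, filters and variance models, fits of 2 groups alone, a replicate block, spike and beta-actin ratios as terms, fits within 1 class of spike ratio, averaging the probe sets of a gene, a 2-fold minimum and leaving out each array.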

Additional observations from a re-analysis of the deposited data

How the results depend on the processing

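A percentage in parentheses is the share of all genes called under the same setting. With the spike ratio as a term, and within the arrays of high spike ratio, UB against WD+IM has WD+IM replicate 3 alone on its WD+IM side. Of the members, 14 were called in UB against WD (33.0%), against 6 with the beta-actin ratio as a term (19.1%), 3 with the spike ratio as a term (4.81%), 27 under median centring (40.1%) and 5 with a 2-fold minimum. Leaving out 1 array gave 9 (without UB replicate 1, 21.1%) to 15 calls. In UB against WD+IM, 19 were called (30.3%), against 9 with the spike ratio as a term (14.3%) and 8 with a 2-fold minimum, and 15 to 17 without 1 array. In WD+IM against WD, 5 were called (14.7%), against 3 with the beta-actin ratio (5.16%), 3 under median centring (11.1%), 2 with a 2-fold minimum and 4 to 8 without 1 array (8 without WD replicate 3, 14.7%). Of the other pathway genes, 22 were called in UB against WD, against 13 with the beta-actin ratio, 2 with the spike ratio, 8 with a 2-fold minimum and 13 to 20 without 1 array (13 without UB replicate 1). In UB against WD+IM, 24 were called, against 11 with the spike ratio, 14 within the arrays of high spike ratio (18%), 12 with a 2-fold minimum and 16 to 21 without 1 array. In WD+IM against WD, 13 were called, against 7 with the beta-actin ratio, 8 within the arrays of low spike ratio (7.87%), 7 with a 2-fold minimum and 12 to 15 without 1 array. The counts of ratios wholly apart stayed within 1.5 times the values given under the alternatives run. Without 1 array they were 6 to 7 in UB against WD, 4 to 6 in WD+IM against WD and 6 to 7 in UB against WD+IM. These last counts could only stay or rise, because leaving out an array cannot end a full separation.

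The sign turned for Bnip3 in UB against WD with the spike ratio as a term (-0.050). With the probe sets of a gene averaged it turned for Vegfa (0.12), Pdha1 (0.78) and Got2 (-0.35) in UB against WD, where these genes have dimmer probe sets that differ from the brightest. The cause of the other changes was not tested, except that a fit without an array holds fewer arrays. With no detection calls used, weak signals cannot be told from background.

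Arrays of equal replicate number mostly did not deviate together. Over 9 pairs of the same number, deviations from the group means correlated at -0.348 to 0.277, with 1 pair over 0.1. Of 9 arrays, 1 correlated best with its own number. Such values cannot show whether pools of equal number were collected together. With the replicate block 14, 5 and 18 members were called in UB against WD, WD+IM against WD and UB against WD+IM. Of all genes, 29%, 12.5% and 26.9% were called there. The call of Pdhb was lost in the last comparison.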
